A study of Mus musculus with 21 samples.

Results

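The transcriptome of mouse embryonic stem cells kept in LIF was compared with that of cells kept in 2i+LIF at HP, the culture stage so named in the labels. The comparison rests on 6 of the 21 mRNA sequencing libraries of the study, 3 labelled LIF HP and 3 labelled 2i+LIF HP, chosen by these labels alone. All libraries came from E14Tg2a, a male embryonic stem cell line of 129 background that carries a destabilised green fluorescent protein (GFPd2) at 1 allele of Rex1 (Zfp42). Per the growth protocol, cells were first held for 1 week in NDiff227 medium with 3 µM CHIR99021 (CH) and 1 µM PD0325901 (PD), and CH, PD and LIF were then given and withdrawn in alternation at each passage. LIF HP and 2i+LIF HP therefore shared this start, and both labels name LIF. They differ in 2i, the pair of inhibitors CH and PD. Per the design text, cells were sampled without passaging and after 1 or 2 months of culture, and the labels do not tie HP, or the further stages LP and PO, to these times. LIF and 2i+LIF also have 3 libraries each at LP, used here for a comparison between stages. The labels state neither the phase of the alternation at harvest nor whether replicates were separate cultures. The p-values therefore measure a spread between replicate libraries that may be technical, pooled over the groups of all 21 libraries.

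CH inhibits the kinase GSK3, which otherwise marks beta-catenin for destruction. Stabilised beta-catenin acts with TCF and LEF proteins on Wnt target genes. PD inhibits MEK, the kinase that activates ERK, through which FGF4 made by the cells themselves drives them out of the naive state. LIF activates STAT3 and supports self-renewal with or without the inhibitors. Nodal, a ligand of the TGF-beta family that signals through SMAD2 and SMAD3 with the co-receptor CRIPTO (Tdgf1), is also made by these cells and limited by its own targets Lefty1 and Lefty2.

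Gene counts per library were 1491637 to 2025879 in LIF HP and 1132126 to 1813343 in 2i+LIF HP. Log2 levels correlated with those of the other replicates at 0.928 to 0.933 on average in LIF HP and at 0.883 to 0.9 in 2i+LIF HP. Replicates of these groups differed by more than counting error (chi-square per degree of freedom of 14.8 or more), so each library counted as 1 replicate. Reads outside annotated genes made up 8.46 to 16.7% of the entries in LIF HP and 17.2 to 21.5% in 2i+LIF HP, and mitochondrial transcripts 3.48 to 9.35% and 1.25 to 3.05% of the gene counts. The 9 core pluripotency genes, markers of the labelled cell type, were all tested. Their summed level (in CPM, counts scaled to library size) was 1019 to 1313 in LIF HP and 1003 to 1534 in 2i+LIF HP, below the 2049 to 3076 of the CH+LIF HP, 2i+LIF PO, LIF LP and 2i+LIF LP libraries. None passed the test described below, with 1 at an unadjusted p under 0.05 in edgeR and none called by DESeq2 or limma-voom. Sox2 had 427, 373 and 424 CPM in LIF HP replicates 1 to 3 and 440, 401 and 389 CPM in 2i+LIF HP. Some markers of other cells were present. Of 16 primitive endoderm markers 6 passed the filter on low counts; the summed level of the list was 563 to 802 CPM in LIF HP, against 249 to 486 CPM in 2i+LIF HP, while Sox17 had no counts in LIF HP and at most 0.545 CPM in 2i+LIF HP. Of 16 neural markers 8 were tested, and their sum was 608 to 870 CPM in LIF HP, against 810 to 1359 CPM in 2i+LIF HP. The part of such cells in the results below was not tested. Of 10 fibroblast and feeder markers 3 were tested, with none changed. Their summed level was 164 to 177 CPM in LIF HP, against 166 to 255 CPM in 2i+LIF HP.

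Between LIF HP and 2i+LIF HP, 402 of 10643 genes tested (3.78%) differed at an adjusted p under 0.05 in edgeR's quasi-likelihood test. Of these, 223 were higher in LIF HP (2.1%) and 179 were lower (1.68%). Median log2 fold changes were 2.06 among the higher genes and -2.20 among the lower genes, against -0.02 for all genes tested. The smallest change called was 1.05 on the log2 scale, and a further 1674 genes had an unadjusted p under 0.05 only (2076 in all, 19.5%). CPM values of the groups did not overlap for 222 of the 223 higher and 174 of the 179 lower genes, and for 28.0% of all genes tested. The plot of p against fold change shows Ccng1 and Tdgf1 as the rises with the lowest p, and Gpx2 and Peg3 as such falls. Leaving out LIF HP replicate 2 cut the count to 123, and leaving out 2i+LIF HP replicate 2 cut it to 170. Without LIF HP replicate 3 it was 89 higher and 66 lower genes, and without 2i+LIF HP replicate 3 it was 186. Of the 402 genes, 82 kept their call under all 16 alternatives. Alternatives were followed gene by gene for 98 called genes, those named by rule and some picked after their values were seen, and 48 of them kept the call whichever of the 6 libraries was left out. It was lost with each of the 6 omissions for 10, namely Axin2, Btg2, Gdf15, Itga6, Naip1, Ppp1r1a, T, Tek, Tex101 and Trf. With 5 of the 6 it was lost for 13, namely Dppa5a, Gm42865, Gpx1, Icam1, Id2, Mdm2, Oit1, Pidd1, Rps27l, Slc38a4, Stk31, Tcf15 and Tfap2c. With 4 of the 6 it was lost for 11, among them Epcam, Ffar3, Gpx7, Igf2r, Ooep, Rpl9, Rps9, Srrm4os and Tpt1. With 3 it was lost for D630023F18Rik, Etv1, Gpx4 and Lef1, with 2 for Fst, Gm11238, Igf1r, Lefty1 and Slc16a3, and with 1 for Dkk1, Etv4, Gnas, Jam2, Nlrp4c, Nodal and Perp. The count rose to 1427 genes when 2i+LIF LP replicate 1 and 2i+LIF PO replicate 1 were both omitted, libraries of neither group that stood apart from their replicates. They enter through the shared estimate of spread and through the filter on low counts (10960 genes tested without them).

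**Figure D1:**
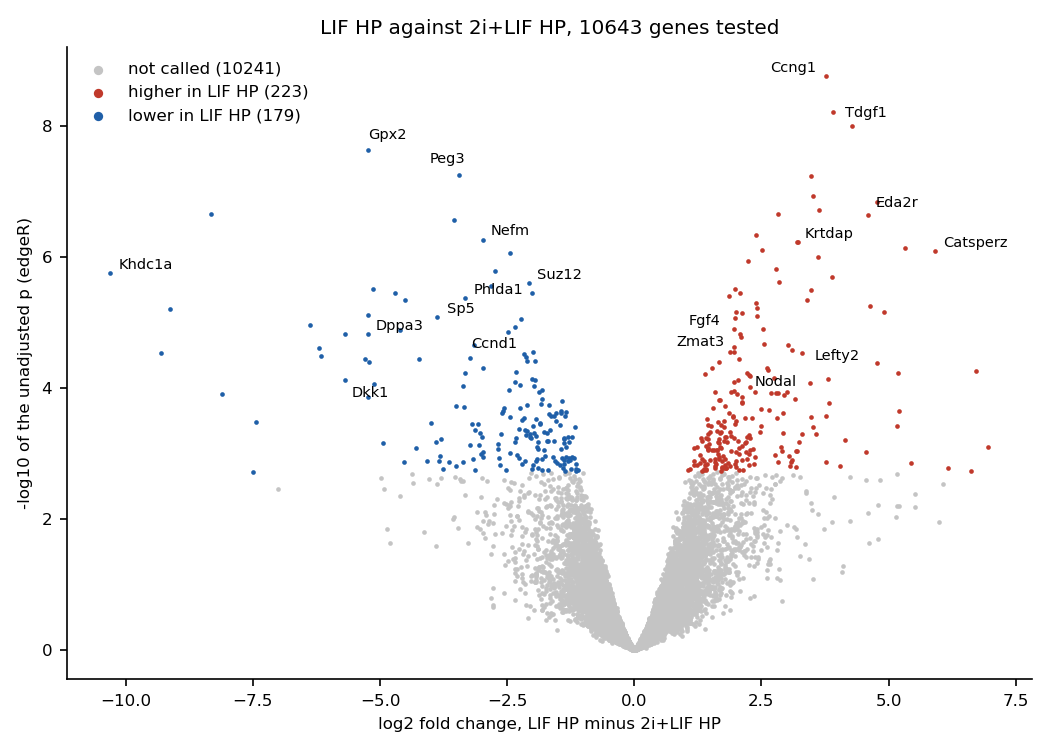
Each point is 1 of 10643 genes, with the log2 fold change of LIF HP minus 2i+LIF HP on the x axis and the -log10 unadjusted p of edgeR's quasi-likelihood test on the y axis. The 223 genes called higher are red, the 179 called lower are blue, and Ccng1, with an adjusted p of 1.83e-05, stands highest.

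The called genes differed in length. Median exonic length, summed over all annotated exons, was 2701 bases among the higher genes, 5815 among the lower genes and 4537 among all genes tested. Of the 2129 shortest genes 99 were higher and 35 lower, with a median log2 fold change of 0.53. Of the 2128 longest 15 were higher and 59 lower, with a median of -0.40. Across genes, which are not independent replicates, fold change and length had a Spearman's rho of -0.362. Within libraries, level relative to the gene's mean over all libraries had a rho with length of -0.269, -0.542 and -0.333 in LIF HP replicates 1 to 3, and of 0.196, -0.0706 and -0.0714 in 2i+LIF HP. The 3 LIF HP libraries were thus the lowest of all 21, the others reaching from -0.256 to 0.402. An offset that takes out each library's trend with length, added after the data were seen, gave 366 genes (3.44% of 10641; 185 higher, 181 lower), of which 292 were among the 402. Where it ended the call of a gene described below, that is said beside the gene. It also called genes that did not pass without it, such as Spry2 and Trp53inp1 (edgeR adjusted p 0.0211 and 0.0323). The part of length in the remaining calls was not tested.

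**Figure D2:**
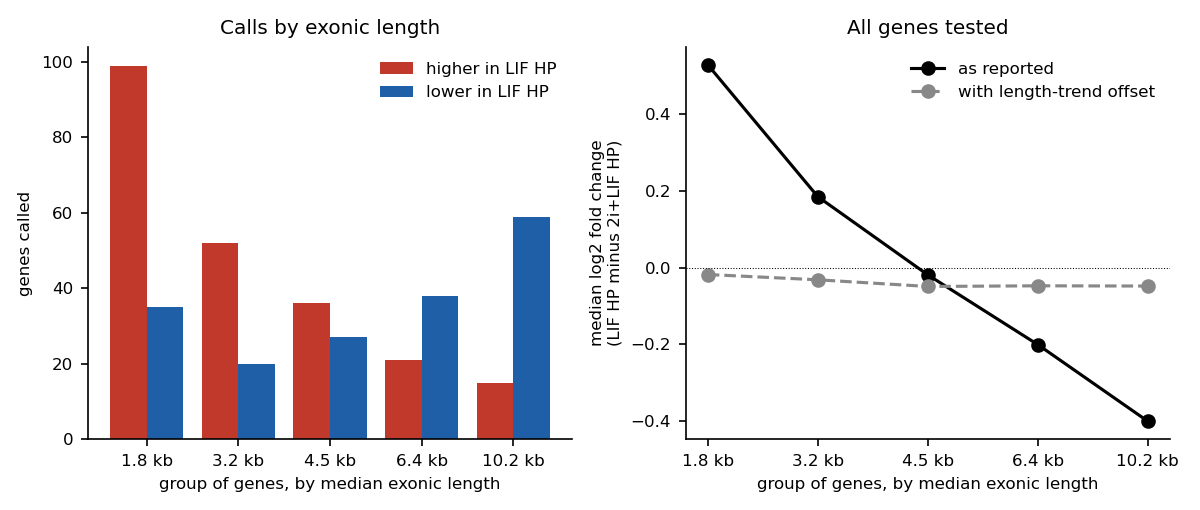
Genes are split into 5 groups of near-equal number by exonic length, named on the x axes by their median length. The left panel counts genes called higher (red) or lower (blue) in LIF HP, with 99 and 35 in the shortest group against 15 and 59 in the longest, and the right panel gives the median log2 fold change, whose slope is absent with the length-trend offset.

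Wnt targets were the list with the lowest median. In these bulk libraries fewer cells of a kind and less RNA per cell cannot be told apart. Of 20 targets and feedback genes of Wnt and beta-catenin 14 were tested, 6 were lower in LIF HP (where 1.68% of all genes tested were), 1 was higher, and the median log2 fold change was -2.59. Leaving out 1 library left 2 lower genes (without 2i+LIF HP replicate 2), 3 (without LIF HP replicate 2 or 3), 4 (without LIF HP replicate 1 or 2i+LIF HP replicate 3) or 5, with a median of -2.96 to -2.30. Sp5, a transcription factor induced directly by beta-catenin, had 19.6, 30.2 and 23.7 CPM in LIF HP replicates 1 to 3 and 135, 494 and 455 CPM in 2i+LIF HP. All LIF HP libraries lay below all 2i+LIF HP libraries, of which replicate 1 was much the lowest (log2 fold change -3.88 with SE 0.70, edgeR adjusted p 0.00174). Axin2, a negative feedback component of the beta-catenin destruction complex, had 12.4, 8.62 and 6.18 CPM against 48.8, 73.6 and 53.7 CPM, again without overlap (-2.65, SE 0.73, edgeR adjusted p 0.0399). Lef1, a partner of beta-catenin on DNA, had 1.55, 0 and 1.03 CPM in LIF HP, against 25.1, 50.2 and 29.7 CPM in 2i+LIF HP. Dkk1, a secreted Wnt antagonist, was nearly absent from LIF HP, with 2 counts in all, and had 6.97, 53.4 and 17.2 CPM in 2i+LIF HP. Its ratio of 59.1 has a 95% interval of counting error from 16.0 to 493. Without 2i+LIF HP replicate 2, its highest library, the call was lost (log2 fold change -4.56, edgeR adjusted p 0.0838), as was that of Lef1 (edgeR adjusted p 0.056), which LIF HP replicates 2 and 3 also decided (0.081 and 0.051 without them). T (Brachyury), a mesoderm regulator, had 2.06, 1.23 and 1.03 CPM against 13.5, 36.5 and 17.2 CPM (edgeR adjusted p 0.0411). Cyclin D1 (Ccnd1), which carries cells from G1 into S phase, was abundant in both groups, with 59.8, 54.8 and 50.5 CPM in LIF HP, against 266, 219 and 169 CPM in 2i+LIF HP (-1.98, SE 0.39, edgeR adjusted p 0.00428).

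Not every target followed. Tcf7 (-2.45, edgeR adjusted p 0.0695), Nkd1 (-2.85, 0.121) and Cdx2 (-3.09, 0.103) had large differences that did not pass the test. Cdx1 had 31.9, 36.3 and 38.1 CPM in LIF HP, inside the range of 15.3 to 70.3 CPM in 2i+LIF HP. Ppp1r1a was higher in LIF HP (1.76, edgeR adjusted p 0.047), a call that 12 of 16 alternatives ended, the length-trend offset among them (edgeR adjusted p 0.272). The calls of Axin2 and T were lost when any 1 of the 6 libraries was left out, and that of T also with DESeq2 (adjusted p 0.151). None of the 16 tested genes of the Wnt machinery, from receptors to GSK3, passed the test in edgeR (4 had an unadjusted p under 0.05) or DESeq2, and 1 was lower by limma-voom. In edgeR 1 was lower with the replicate block and 3 without 2i+LIF LP replicate 1 and 2i+LIF PO replicate 1. Of all genes tested 3.78% were called. Ctnnb1, which encodes beta-catenin, had 405, 469 and 516 CPM in LIF HP, against 394, 944 and 354 CPM in 2i+LIF HP.

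Promoters were searched for the 6 Wnt targets called lower, and some of them are shown. In the 250 bases before the RefSeq start (GRCm38.p6), the TCF and LEF core CTTTGA, searched on both strands, was found in 13.8% of 32851 promoters. Of the 6 fallen targets 5 had an entry, with 8 promoters between them. A match was found in 4 of the 8, those of Sp5, Dkk1 and T and 1 of the 4 of Lef1. Sp5 (chr2:70474673-70474922, plus strand) has matches whose first bases lie 204 and 104 bases before the start. T (chr17:8434173-8434422, plus strand) has 1 at 234 bases and Axin2 (chr11:108920099-108920348, plus strand) none. A match is a description of the letters, not a binding site. Capitals mark CTTTGA or its reverse complement in the sequences, given 5′ to 3′.
Sp5: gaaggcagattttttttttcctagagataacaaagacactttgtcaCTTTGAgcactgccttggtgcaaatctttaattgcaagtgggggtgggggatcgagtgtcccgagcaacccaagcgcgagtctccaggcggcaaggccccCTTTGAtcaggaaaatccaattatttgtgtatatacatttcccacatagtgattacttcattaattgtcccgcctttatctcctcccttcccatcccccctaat
T: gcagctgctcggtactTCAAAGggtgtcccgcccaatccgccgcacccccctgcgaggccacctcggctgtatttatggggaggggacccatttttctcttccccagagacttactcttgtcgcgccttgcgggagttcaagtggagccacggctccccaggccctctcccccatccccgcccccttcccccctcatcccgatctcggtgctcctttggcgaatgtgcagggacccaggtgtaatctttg
Axin2: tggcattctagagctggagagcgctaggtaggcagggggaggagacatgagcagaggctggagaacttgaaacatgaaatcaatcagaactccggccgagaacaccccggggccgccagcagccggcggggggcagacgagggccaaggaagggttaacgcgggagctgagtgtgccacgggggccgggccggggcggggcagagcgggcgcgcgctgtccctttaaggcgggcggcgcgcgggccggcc

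The Nodal ligand, its co-receptor and both Lefty inhibitors were higher in LIF HP. Of 16 listed genes of the pathway 13 were tested, 4 were higher (where 2.1% of all genes tested were), 1 was lower, 7 had a fold change above 0, and the median log2 fold change was 0.60. Without LIF HP replicate 2 the median was -0.04, without 2i+LIF HP replicate 3 it was 0.30, and without 2i+LIF HP replicate 2 it was 1.03, with 3 higher genes and no lower one. Tdgf1 (chromosome 9, 110939603 to 110946158 on GRCm38) had 430, 588 and 631 CPM in LIF HP, against 65.5, 10.4 and 33.5 CPM in 2i+LIF HP. They stood far apart although the 2i+LIF HP libraries differed severalfold among themselves (log2 fold change 3.90 with SE 0.46, edgeR adjusted p 3.34e-05). Nodal itself had 60.8, 74.5 and 58.7 CPM against 20.4, 9.27 and 11.5 CPM (2.21, SE 0.46, edgeR adjusted p 0.00673). Lefty2, a secreted inhibitor of Nodal and one of its targets, had 109, 102 and 166 CPM against 23.2, 9.81 and 2.88 CPM (3.30, SE 0.65, edgeR adjusted p 0.00431). Lefty1, the related inhibitor, had 40.7, 44.3 and 60.8 CPM against 4.18, 10.9 and 4.79 CPM (2.83, SE 0.63, edgeR adjusted p 0.0104). The call of Nodal was lost without 2i+LIF HP replicate 2 (edgeR adjusted p 0.0549), and that of Lefty1 without 2i+LIF HP replicate 1 or 3 (0.0554 and 0.0543). The groups of each did not overlap, as for 222 of the 223 higher genes. The lower gene was Fst, which encodes follistatin, a binding protein that blocks activin. It had 1 count in LIF HP and 2.32, 24.5 and 1.92 CPM in 2i+LIF HP, 46.9 times lower in LIF HP (counting interval 8.05 to 1887). Without 2i+LIF HP replicate 2 the fitted log2 fold change was -2.96 in place of -5.12, and the call was lost (edgeR adjusted p 0.16), as it was without LIF HP replicate 1 (0.0504). The receptors Acvr1b and Acvr2b and the effectors Smad2 and Smad3 did not pass the test, with log2 fold changes of -1.16 to -0.30.

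Tdgf1 was also among the genes whose difference between media depended on the stage. At LP it had 441, 583 and 495 CPM in LIF and 431, 343 and 399 CPM in 2i+LIF (log2 fold change 0.37, edgeR adjusted p 0.781). The 2i+LIF HP libraries were thus the low ones among these 4 groups, and the change of the difference from LP to HP was 3.53 on the log2 scale (SE 0.60, edgeR adjusted p 0.00682). For Nodal, Lefty1 and Lefty2 that change did not pass the test (1.58, 0.13 and 2.35).

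**Figure D3:**
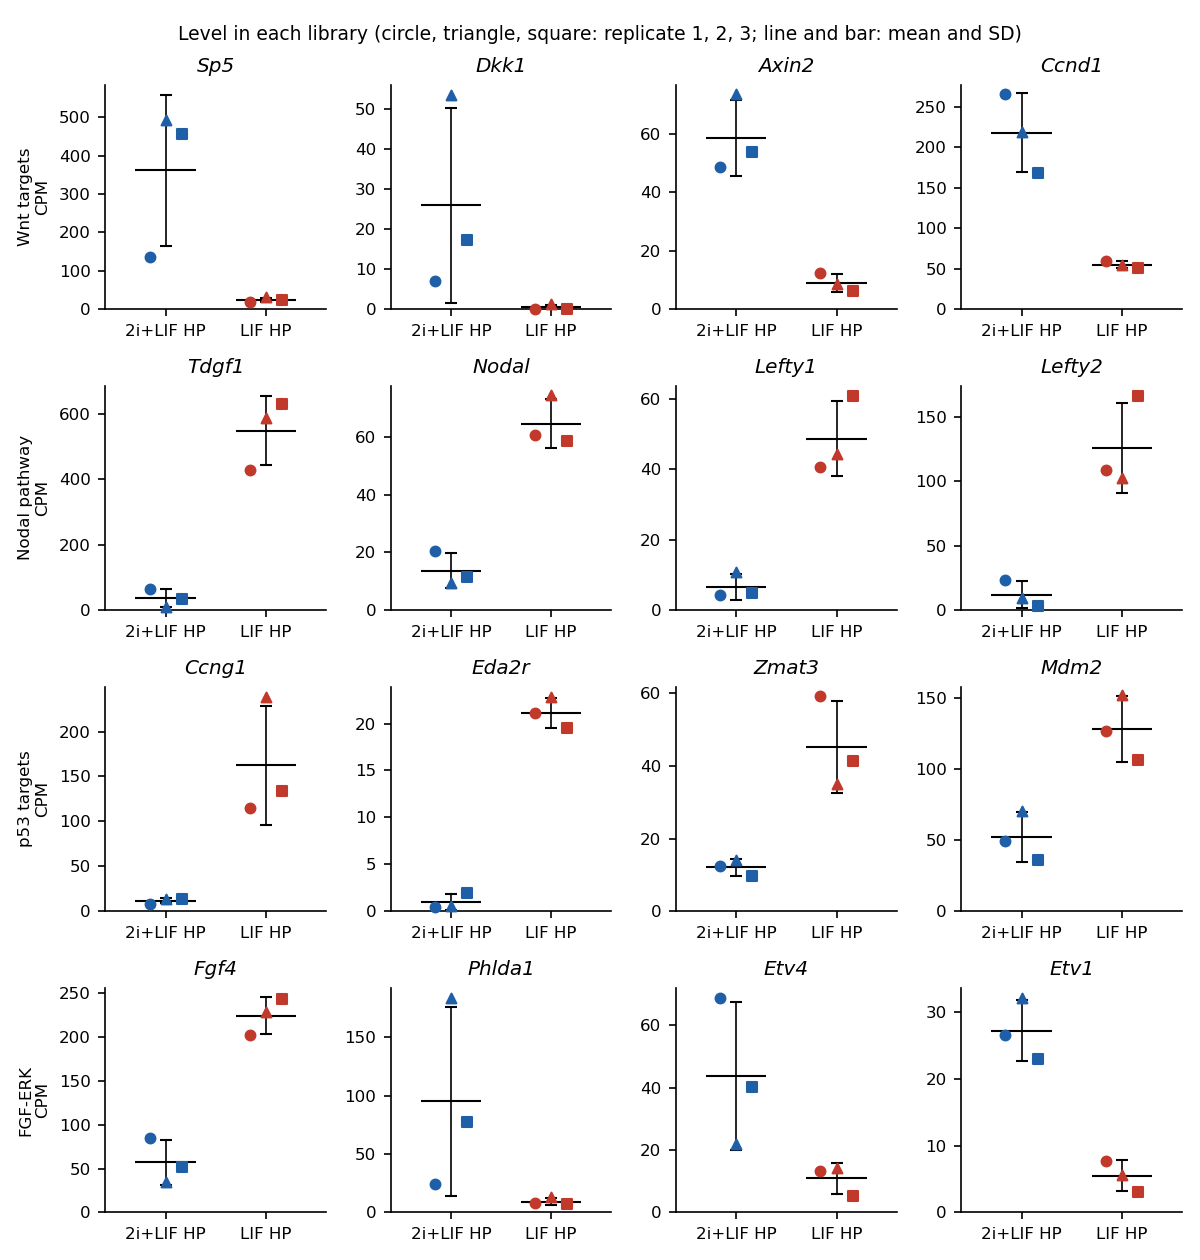
CPM of 16 genes in the 3 libraries of 2i+LIF HP (blue) and of LIF HP (red), on axes that start at 0, with the mean and SD of 3 libraries in black. Of the genes shown, 9 are higher in LIF HP without overlap, from Tdgf1 to Fgf4, and 7 are lower without overlap, from Sp5 to Etv1. All 16 were picked from called genes, nearly all of which did not overlap, against 28.0% of all genes tested.

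In the FGF and ERK lists 1 ligand was higher and 3 targets were lower in LIF HP, where 2.1% and 1.68% of all genes tested were. Fgf4, the ligand made by embryonic stem cells, had 202, 228 and 243 CPM in LIF HP, against 84.6, 34.9 and 51.8 CPM in 2i+LIF HP (log2 fold change 1.97 with SE 0.37, edgeR adjusted p 0.0024). It was the 1 gene called among the 7 tested of the FGF list, and Fgfr1, the main receptor in these cells, had -0.35. Of 20 ERK targets and feedback genes 15 were tested, none was higher, 3 were lower in LIF HP, and the median was -1.38 (-0.82 without 2i+LIF HP replicate 2). LIF HP is the group whose label names no MEK inhibitor. Which inhibitors were in the medium at harvest is known here from the labels alone, for these targets and for the Wnt targets. Phlda1 had 7.73, 12.9 and 7.21 CPM in LIF HP, against 24.2, 183 and 77.6 CPM in 2i+LIF HP (-3.33, SE 0.58, edgeR adjusted p 0.00119). Etv4, an ETS factor induced by FGF, had 13.4, 14.2 and 5.15 CPM against 68.8, 21.8 and 40.2 CPM (-1.95, edgeR adjusted p 0.00505), a call lost without 2i+LIF HP replicate 1 (0.0527). Etv1, of the same subfamily, had 7.73, 5.54 and 3.09 CPM against 26.5, 32.2 and 23 CPM, and its call was lost with the length-trend offset (-1.83, edgeR adjusted p 0.0694) and without 2i+LIF HP replicate 2 or LIF HP replicate 2 or 3 (0.0549 to 0.079). The feedback phosphatase Dusp6 was at the limit of detection in both groups, with 0, 1.23 and 0 CPM in LIF HP, against 2.32, 4.91 and 2.88 CPM in 2i+LIF HP. Spry2, a feedback inhibitor, had 86.1, 57.3 and 69 CPM against 166, 222 and 83.4 CPM, which did not pass the test (edgeR adjusted p 0.103). It passed with the length-trend offset (edgeR adjusted p 0.0211).

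The p53 targets Ccng1, Eda2r, Zmat3 and Mdm2 were higher in LIF HP. They were the 4 higher genes of the 21 tested in the cell cycle and p53 list (2.1% of all genes tested were higher), in which Ccnd1 was lower and the median log2 fold change was 0.89. Ccng1 (cyclin G1; chromosome 11, 40748552 to 40755311), the gene with the lowest p of the comparison, had 115, 238 and 134 CPM in LIF HP, against 8.37, 14.2 and 13.4 CPM in 2i+LIF HP. The lowest LIF HP library was severalfold above the highest of 2i+LIF HP (log2 fold change 3.77 with SE 0.42, edgeR adjusted p 1.83e-05). Eda2r, a death-domain receptor of the TNF receptor family, had 21.1, 22.8 and 19.6 CPM against 0.465, 0.545 and 1.92 CPM (4.58, SE 0.66, edgeR adjusted p 0.000203). Zmat3, an RNA-binding protein, had 59.3, 35.1 and 41.2 CPM against 12.6, 14.2 and 9.58 CPM (1.88, SE 0.37, edgeR adjusted p 0.00428). Mdm2, the ubiquitin ligase that degrades p53, had 127, 152.1 and 106 CPM against 49.3, 70.9 and 36.4 CPM (1.29, SE 0.35, edgeR adjusted p 0.0375). The call of Mdm2 was lost in 5 of the 6 omissions of a library, with an adjusted p of up to 0.159. Cdkn1a, the CDK inhibitor p21, had 503, 414 and 378 CPM against 276, 268 and 259 CPM, which did not pass the test (0.69, edgeR adjusted p 0.286), nor did Trp53inp1 (1.13, 0.0645) or Phlda3 (0.89, 0.28). Trp53inp1 passed with the length-trend offset (edgeR adjusted p 0.0323). Sesn1 was not called either, and its log2 fold change was below 0 in all 16 alternatives (-0.57 to -0.20). Sesn2, Bbc3, Pmaip1 and Aen did not pass, with fold changes above 0 in every alternative that tested them. Of the 21 genes tested in the list, 16 had a fold change above 0.

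Further p53-responsive genes were looked up after their values had been seen. Perp (2.75, edgeR adjusted p 0.00761), Psrc1 (3.60, 0.000481), Gdf15 (1.69, 0.0318), Rps27l (2.28, 0.0333), Pidd1 (3.07, 0.0449) and Btg2 (1.87, 0.0443) were higher in LIF HP. Gdf15 and Btg2 lost their call with the length-trend offset (edgeR adjusted p 0.0773 and 0.0745). Btg2 also lost it with limma-voom and with counts thinned to the lowest library total. Since these further genes were picked in this way, they add no count to the list. The decamer RRRCWWGYYY (R for A or G, W for A or T, Y for C or T) is a half-site of the p53 response element, not a whole element. It was found in the 250 bases before the start of 7.13% of RefSeq promoters. As above, a match describes the letters and is not a binding site. Of the 4 risen p53 targets 3 had an entry and 2 had a match, Ccng1 at 185 bases and Mdm2 at 186 bases before the start. The Mdm2 promoter (chr10:117710759-117711008, minus strand) is shown as the one whose gene showed the smallest of the 4 changes, with the decamer in capitals.
Mdm2: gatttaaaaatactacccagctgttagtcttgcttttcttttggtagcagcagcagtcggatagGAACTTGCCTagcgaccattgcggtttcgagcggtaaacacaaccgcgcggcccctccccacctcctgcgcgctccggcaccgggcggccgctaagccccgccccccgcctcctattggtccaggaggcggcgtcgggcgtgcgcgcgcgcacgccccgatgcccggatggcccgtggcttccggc

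Of 22 tested genes of the naive state 2 were higher and 1 was lower in LIF HP (13.6%, against 3.78% of all genes tested), with a median log2 fold change of 0.33. DESeq2 and limma-voom called 5 each, and without LIF HP replicate 2 the lower gene alone was left. Nanog had 254, 573 and 338 CPM in LIF HP, against 204, 204 and 99.7 CPM in 2i+LIF HP (1.20, SE 0.37, edgeR adjusted p 0.0698). Klf2 had 584, 664 and 537 CPM against 317, 284 and 131 CPM (1.28, SE 0.43, edgeR adjusted p 0.0903). Neither pair of groups overlapped, yet neither gene passed the test. Esrrb, Tfcp2l1, Klf4 and Zfp42, the reporter locus, had log2 fold changes of -0.08 to 0.62, with adjusted p of 0.309 or more. Jam2, an adhesion protein, was higher, with 201 ± 59.4 CPM (SD, n = 3) against 63.4 ± 6.96 CPM and no overlap (1.67, SE 0.34, edgeR adjusted p 0.00507). Dppa5a was higher too (2.83, edgeR adjusted p 0.0419), a call lost with the length-trend offset (0.142). Dppa3 (Stella), a maternal factor that keeps UHRF1 off chromatin, fell from 36.7, 142.8 and 73.8 CPM in 2i+LIF HP to 0, 2.46 and 5.15 CPM in LIF HP (-5.24, SE 0.97, edgeR adjusted p 0.00263). Formative and primed genes showed 1 change among 13 tested: Tcf15 had 37.1, 45.6 and 34 CPM against 7.44, 14.7 and 1.92 CPM (2.20, edgeR adjusted p 0.0344). That call was lost with the length-trend offset (edgeR adjusted p 0.119) and when any library but 2i+LIF HP replicate 2 was left out. Fgf5 was without counts in LIF HP and had 1.39, 0 and 0 CPM in 2i+LIF HP.

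LIF is named in both labels. Of 15 tested genes of its receptor, STAT3 and its targets 1 was higher (6.67%, against 3.78% of all genes tested), Icam1, an adhesion molecule with 54.6, 63.4 and 41.2 CPM in LIF HP, against 22.3, 14.2 and 11.5 CPM in 2i+LIF HP (log2 fold change 1.71 with SE 0.45, edgeR adjusted p 0.0326). Socs3, the feedback inhibitor of the receptor, had 40.7, 38.2 and 26.8 CPM against 14.9, 9.27 and 0.958 CPM, without overlap and short of the threshold (1.97, edgeR adjusted p 0.0681). Receptor subunits Lifr and Il6st had -0.43 and -0.29. The list's median was 0.76, and from 0.24 to 1.27 when 1 library was left out. The call of Icam1 was lost in all omissions but that of 2i+LIF HP replicate 1 (edgeR adjusted p up to 0.141), while limma-voom called 5 genes of the list. Of the BMP list Id2, a helix-loop-helix inhibitor, was the 1 of 11 genes called (-3.05, edgeR adjusted p 0.0304), while Id1 had 14.9, 16 and 16.5 CPM against 6.97, 19.08 and 20.1 CPM.

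Chromatin regulators gave 1 call in the Polycomb list and 2 in the DNA methylation list, where 3.78% of all genes tested were called. Suz12, a core subunit of Polycomb repressive complex 2, had 145.8, 101 and 120 CPM in LIF HP, against 452, 429 and 665 CPM in 2i+LIF HP (log2 fold change -2.08 with SE 0.35, edgeR adjusted p 0.000932). It was the 1 gene called of 9 tested in that complex and its partners. Ezh2, the catalytic subunit, had 423, 423 and 294 CPM against 594, 293 and 485 CPM, which overlapped, and Eed, the third core subunit, had 0.79 (edgeR adjusted p 0.187). Among 12 genes of DNA methylation Uhrf2 and Dppa3 were lower and none was higher, with a median of -0.64 (-0.27 without 2i+LIF HP replicate 1). Uhrf2, a relative of the maintenance factor UHRF1, had 13.9, 19.09 and 19.6 CPM against 69.7, 93.8 and 62.3 CPM (-2.11, SE 0.43, edgeR adjusted p 0.00505). At LP the order was the other way round, with 19.3, 28.6 and 22.6 CPM in LIF and 5.61, 6.89 and 11.2 CPM in 2i+LIF. That difference alone did not pass the test at LP (edgeR adjusted p 0.127), but its change from LP to HP did (-3.67, SE 0.62, edgeR adjusted p 0.00682). Dnmt1, Dnmt3a, Dnmt3b and Uhrf1 had log2 fold changes of -0.82 to -0.25, none of which passed.

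Imprinted genes, expressed from 1 parental allele, gave 4 calls among 23 tested, where 3.78% of all genes tested were called. Without LIF HP replicate 2 there was 1 call, and without LIF HP replicate 3 or 2i+LIF HP replicate 2 or 3 there were 2. Peg3, a paternally expressed zinc finger gene, fell from 55.8, 184 and 181 CPM in 2i+LIF HP to 21.1, 6.77 and 9.27 CPM in LIF HP (log2 fold change -3.45 with SE 0.46, edgeR adjusted p 0.000102). Slc38a4, an amino acid transporter gene, fell (-2.17, edgeR adjusted p 0.0183), and so did Igf2r (-1.45, 0.0166), whose call was lost with the length-trend offset (0.0623) and which overlaps Airn. Gnas rose (1.39, edgeR adjusted p 0.00673) and overlaps Nespas, so reads of these pairs cannot be told apart without a known strand setting. Meg3 had 536, 37.6 and 379 CPM in LIF HP, against 756, 188 and 260 CPM in 2i+LIF HP, a spread within groups that exceeded the difference between them. Of 20 tested germline genes that promoter methylation silences, Stk31 (-1.90, edgeR adjusted p 0.033) and Tex101 were lower. Tex101 had 3 counts in LIF HP, 13.5 times lower than 2i+LIF HP after scaling (counting interval 4.34 to 68.0).

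Lineage, adhesion and metabolic lists held at most 2 calls each, besides those above, where 3.78% of all genes tested were called. Tfap2c, a factor of trophoblast and naive cells, rose (1.45, edgeR adjusted p 0.0331) as 1 of 7 tested trophoblast genes. The median of these 7 was -1.46, and 3 of them had a fold change above 0. Nefm, a neurofilament subunit, fell from 351, 195 and 355 CPM to 39.7, 35.7 and 38.1 CPM (log2 fold change -2.98 with SE 0.45, edgeR adjusted p 0.000377) and was the 1 of 8 neural genes called. It overlaps Nefl. Epcam fell (-2.35, edgeR adjusted p 0.0286) and the integrin gene Itga6 rose (1.18, 0.0326) among 13 adhesion genes. The call of Itga6 was also lost without the filter on low counts. None of the 6 primitive endoderm, 3 fibroblast, 20 cholesterol synthesis or 19 ATF4 pathway genes tested changed at an adjusted p under 0.05, while 2, 0, 4 and 2 of them had an unadjusted p under 0.05 in edgeR. DESeq2 called 2, 0, 0 and 0 of them and limma-voom 1, 0, 2 and 1. Of 24 glycolysis genes Slc16a3, the lactate exporter MCT4, was higher (2.94, edgeR adjusted p 0.0109), with 16.5, 18.5 and 11.3 CPM against 2.32, 1.63 and 1.92 CPM. Its call was lost with limma-voom. Over all 25 lists, which overlap in part, 316 distinct genes were tested, 19 were higher and 22 lower, 13.0% in all against 3.78% of all genes tested, from which nothing is read since the lists were chosen with earlier results known.

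**Figure D4:**
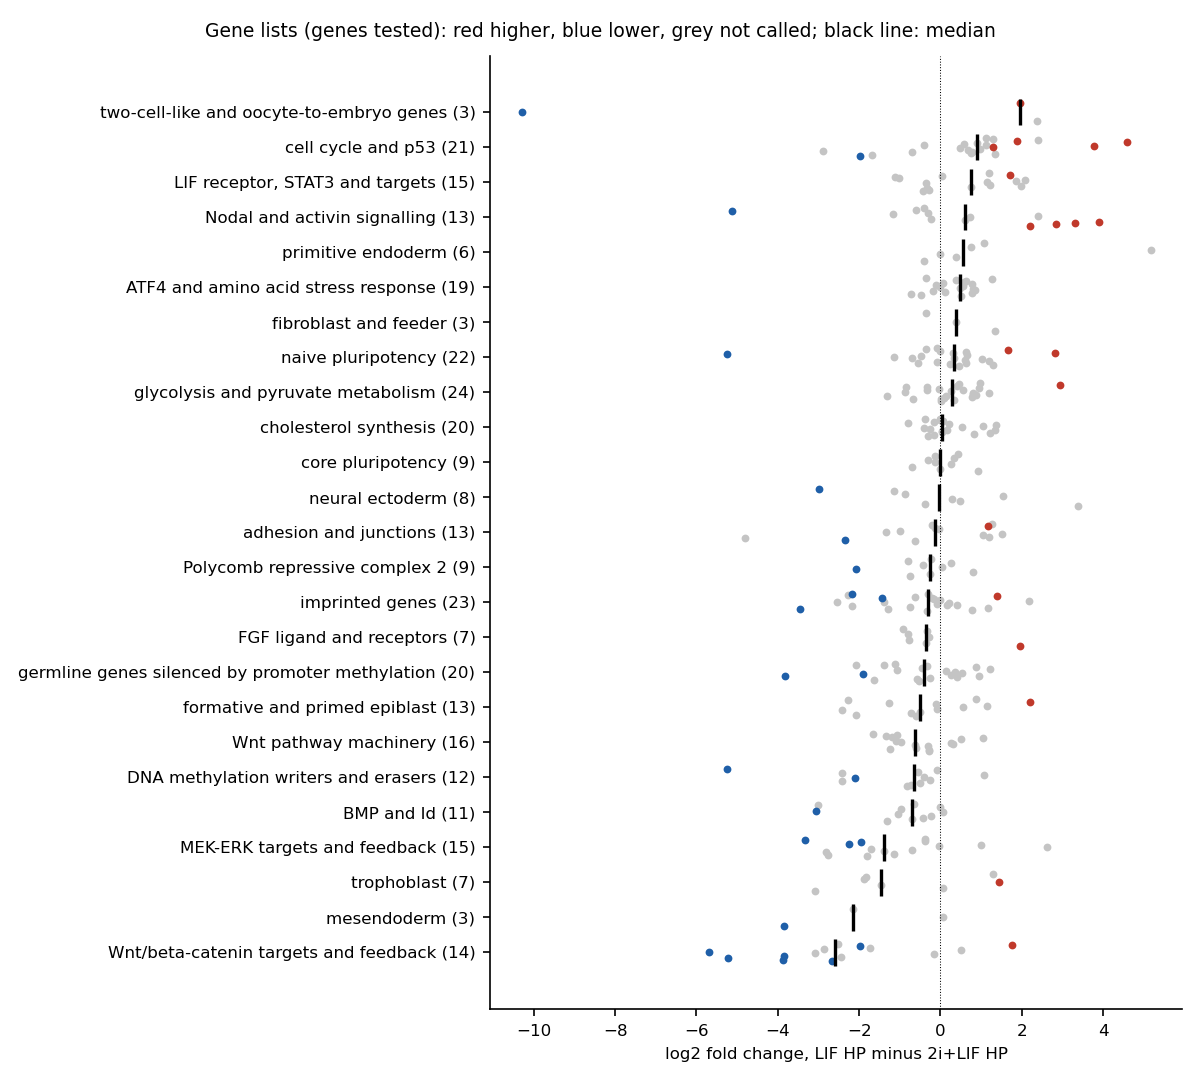
Log2 fold changes of LIF HP minus 2i+LIF HP for the tested genes of each list, with the number tested in brackets, ordered by the list median (black line). Red points are genes called higher, blue points genes called lower and grey points genes not called, and the Wnt targets at the bottom have the lowest median (-2.59).

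The largest changes included genes present in 1 group alone. Khdc1a, which belongs to a family of similar genes active in oocytes and early embryos, had no counts in LIF HP and 6.04, 145.5 and 95.8 CPM in 2i+LIF HP, at least 114.2-fold lower in LIF HP when 3 counts over the group are taken as the floor. Its neighbours Khdc1b and Khdc1c had no counts in LIF HP either, and up to 44.2 and 69.2 CPM in 2i+LIF HP, but did not pass the filter. All 3 were much lower in 2i+LIF HP replicate 1 than in replicates 2 and 3. Dnase2b, a DNA-degrading enzyme, and Osbp2, an oxysterol-binding protein, also had no counts in LIF HP (at least 51.4-fold and 51.7-fold lower), as did Gm11238, Oit1 and Naip1 (at least 26.2-fold, 16.5-fold and 15.6-fold). DESeq2 did not call Dnase2b, Gm11238, Oit1 or Naip1 (adjusted p 0.381, 0.473, 0.323 and 0.518), and the length-trend offset ended the call of Naip1 (edgeR adjusted p 0.0554). So did leaving out mitochondrial genes and Gm42418. Pdzrn4 had 1 count in LIF HP and 56.7, 129 and 93 CPM in 2i+LIF HP. Ube2dnl1, Serpina3m and Cyp2c70 fell to 1 or 2 counts. In the other direction Gm42865, Cgref1 and Trf, the last encoding transferrin, were without counts in 2i+LIF HP, and their levels in LIF HP were higher by at least 12.6-fold, 11.5-fold and 11.1-fold. The calls of Gm42865 and Trf were lost with the length-trend offset (edgeR adjusted p 0.0614 and 0.0564). That of Trf was also lost with limma-voom and with counts thinned to the lowest library total. Catsperz, a subunit of the sperm calcium channel, rose from 0.465, 0 and 0.958 CPM to 11.8, 32 and 42.2 CPM, and Serpine2, a protease inhibitor, from 0, 0.545 and 0.958 CPM to 11.8, 30.8 and 13.4 CPM. Krt42, Ffar3, Mup6 and D630023F18Rik also rose from at most 3 counts. Snx20 rose from 0.465, 1.09 and 0.958 CPM to 21.6, 37.6 and 10.3 CPM. Counts of Mup6 and Serpina3m are uncertain, since both have near-identical relatives.

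By p-value, Myo1f, an unconventional myosin, followed Ccng1 and Tdgf1 among the rises, with 119, 115 and 114 CPM against 8.83, 4.36 and 3.83 CPM (log2 fold change 4.28 with SE 0.52, edgeR adjusted p 3.59e-05). Agpat4, an acyltransferase, and Pclaf, a PCNA-binding factor, were next (3.48 and 3.52). Gpx2, a glutathione peroxidase, had the lowest p among the falls, with 5.15, 6.77 and 10.3 CPM against 57.2, 325 and 429 CPM (-5.23, SE 0.67, edgeR adjusted p 6.14e-05). It overlaps Fntb. Ppfibp2, a liprin, had 3.61, 3.08 and 2.06 CPM against 37.6, 31.6 and 39.3 CPM (-3.55, SE 0.52, edgeR adjusted p 0.000223). In absolute level the largest rises were those of Rps9, Rpl9, Gpx1, Tpt1 and S100a13. The ribosomal protein gene Rps9 had 4003, 7250 and 7513 CPM against 1629, 2680 and 1612 CPM (1.66, edgeR adjusted p 0.0287), and counts of such genes are uncertain because of processed copies. The calls of Rps9, Rpl9 and Tpt1 were lost without LIF HP replicate 2 or 3 or 2i+LIF HP replicate 1 or 3 (edgeR adjusted p 0.0865 to 0.205). Grsf1, an RNA-binding protein of mitochondria, fell from 432, 821 and 564 CPM to 124, 208 and 115 CPM (-2.02, SE 0.35, edgeR adjusted p 0.00107) as one of the 5 largest falls in level, with Suz12, Sp5, Gpx2 and Nefm.

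Replicate 1 of each group was often its lowest library among the genes high in that group. LIF HP replicate 1 was the lowest of its 3 libraries in 65.5% of the 223 higher genes (against 34.7% of all genes tested). 2i+LIF HP replicate 1 was the lowest of its 3 in 107 of the 179 lower genes (59.8%, against 32.4%). Without LIF HP replicate 1 the comparison gave 268 genes, and without 2i+LIF HP replicate 1 it gave 293.

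Whether the difference between LIF and 2i+LIF at HP departed from that at LP was tested as an interaction, which passed for 16 genes (0.15%), 13 of them higher and 3 lower, and 1175 had an unadjusted p under 0.05. Of the 16, 14 were also called at HP. In Ccng1, Tdgf1, Snx20, Arrdc4 and Dhx16 the 2i+LIF HP libraries were the lowest of the 4 groups. Arrdc4, an arrestin-like gene, had 7.44, 2.73 and 2.88 CPM there, 28.3, 47.4 and 54.6 CPM in LIF HP, and 15.4 to 40.3 CPM in the 6 LP libraries. In Krtdap, S100a13, Cyba, Serpinb1a and Fxyd6 the LIF HP libraries were the highest. Krtdap, a secreted epidermal protein, had 200, 311 and 374 CPM in LIF HP, against 38.1, 16.4 and 43.1 CPM in 2i+LIF HP. At LP the order was reversed, with 33.7, 18.9 and 12.9 CPM in 2i+LIF and 0, 0 and 1.44 CPM in LIF. S100a13 had 738, 1093 and 1398 CPM in LIF HP and at most 210 CPM in any of the other 9 libraries. Cyba, a subunit of NADPH oxidase, had 195, 257 and 320 CPM in LIF HP and at most 60.4 CPM in the others. The remaining pair, Trpm1 and Gm31659, did not differ at HP (edgeR adjusted p 0.799 and 0.766) and was low in LIF LP, where Trpm1 had 4.41, 0.664 and 1.44 CPM.

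**Figure D5:**
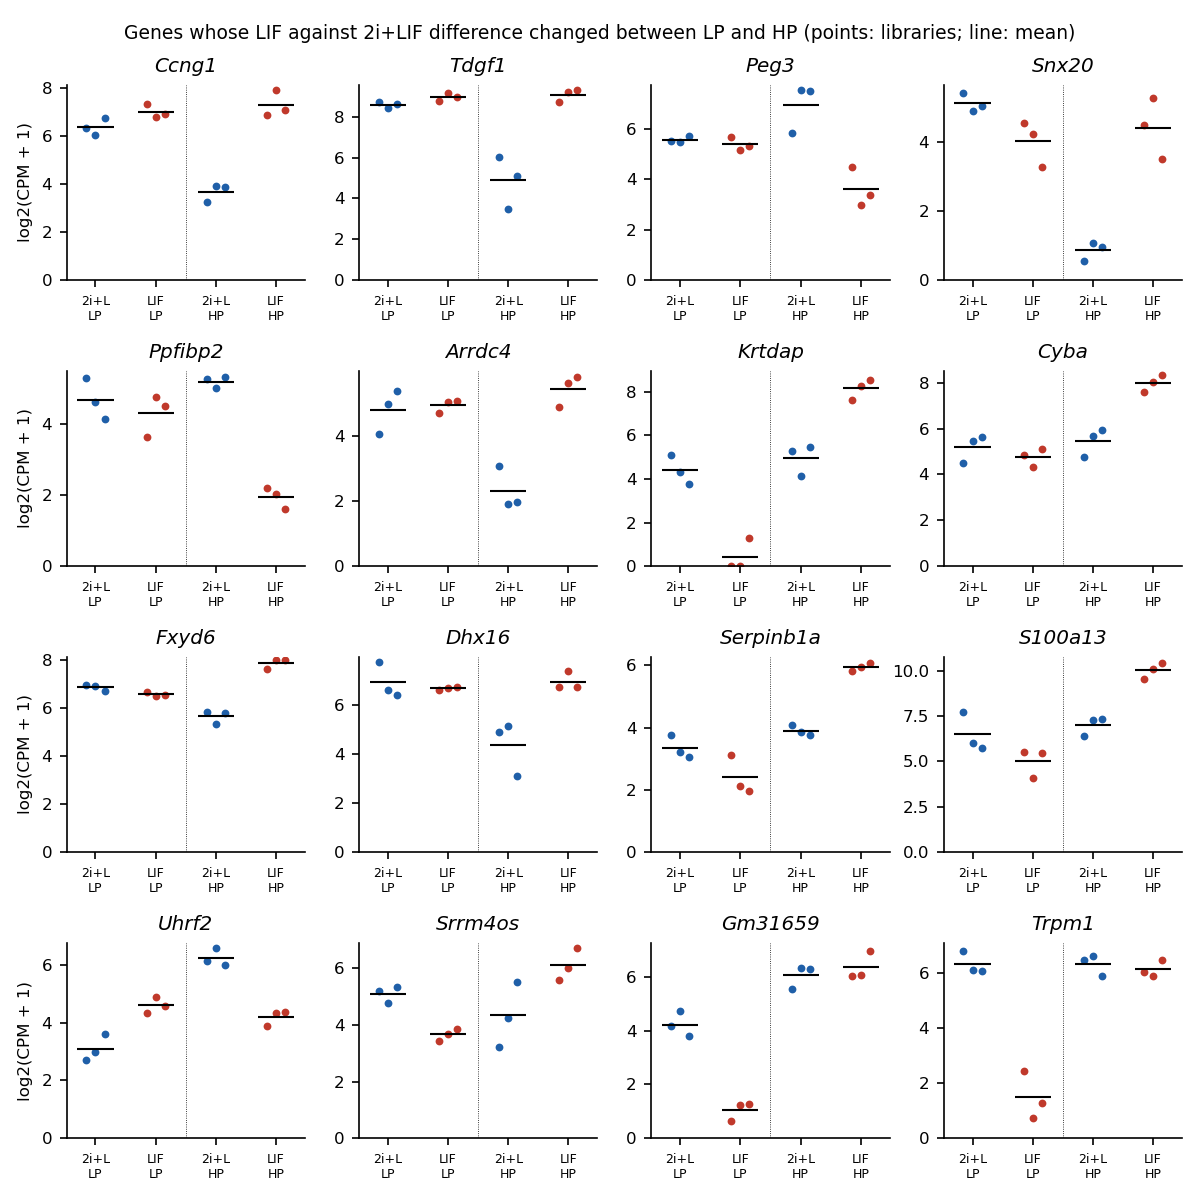
Levels of the 16 genes with a called interaction as log2(CPM + 1), in the 3 libraries each of 2i+LIF LP, LIF LP, 2i+LIF HP and LIF HP, with the mean as a line. LIF HP stands highest for Krtdap, Cyba, Serpinb1a and S100a13, and 2i+LIF HP lowest for Ccng1, Tdgf1 and Snx20.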

How the data were processed

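Messenger RNA of 21 libraries, made from 125 ng of total RNA each, was sequenced by a service. The authors deposited 1 table per library of whole-number counts per Ensembl gene, not normalized, for 31053 genes. Reads were aligned with STAR 2.6.0a to mm10 and counted with HTSeq, per the submitters' processing notes. The strand setting is not given in the sources used here, so the 11038 genes that overlap another may share reads (138 of the 402 called). Entries for reads without a gene were left out: those outside genes are given in the report, ambiguous ones were 0.342 to 0.683% in the 6 libraries, and non-unique alignments 30.3 to 35.5% in LIF HP and 22.5 to 30.4% in 2i+LIF HP. Symbols and positions came from GENCODE M21.

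Counts of all 21 libraries (7 groups) entered 1 quasi-likelihood fit in edgeR 4.0.16 (R 4.3.3), with TMM scaling, filterByExpr and 14 residual degrees of freedom. All tests had 2 sides, and p-values were adjusted by Benjamini-Hochberg over all 10643 genes, and the threshold was 0.05. CPM and folds from pooled counts used the scaled library sizes. Standard errors are the absolute log2 fold change divided by the square root of F. A fold against a group without counts was set against 3 counts over that group, and such limits and intervals (95%) cover counting error only. The steps were tested on simulated counts.

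Named genes were list members, the 10 largest rises and falls at a mean of at least 5 CPM without overlap, the 5 lowest p-values and the 5 largest differences in CPM each way, and all genes with a called interaction. The comparison, members and lists were chosen with earlier results of these data known. Of 424 list genes 3 had no matching symbol. Alternatives were DESeq2 1.42.0, its size factors in edgeR, no filter, thinning to 1132126 counts per library, only the groups compared, limma-voom (limma 3.58.1) with quality weights, the replicate block, omission of libraries, of mitochondrial genes and Gm42418, and, chosen after seeing the data, a length-trend offset. Replicate numbers were not taken to pair libraries. Promoter sequences are those of RefSeq on GRCm38.p6.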

Additional observations from a re-analysis of the deposited data

Results flagged for a closer look

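For 16 genes the difference between LIF and 2i+LIF at HP was itself different from that at LP, by the interaction term of edgeR's quasi-likelihood test at an adjusted p under 0.05. The value given for each is the log2 difference at HP minus that at LP. It was 8.34 for Krtdap (adjusted p 6.15e-06), the lowest p of the 16, then 5.84 for Snx20 (0.000565), 4.94 for Trpm1 (0.000122), 4.63 for S100a13 (0.00823) and 4.30 for Gm31659 (0.0378). It was 3.53 for Tdgf1, 3.18 for Arrdc4, 3.15 for Ccng1, 3.14 for Srrm4os (whose difference at HP, 1.63, lost its call with the length-trend offset, edgeR adjusted p 0.0612), 3.08 for Serpinb1a, 3.00 for Cyba, 2.76 for Dhx16 and 2.53 for Fxyd6, with adjusted p from 0.00682 to 0.0361. It was -3.67 for Uhrf2, -3.30 for Peg3 and -3.16 for Ppfibp2 (0.00682, 0.0135 and 0.0459). Peg3 had 44.9, 43.1 and 50.9 CPM in 2i+LIF LP and 50.7, 35.2 and 38.5 CPM in LIF LP, so the groups overlapped at LP and stood apart at HP.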

How the results depend on the processing

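The 402 genes became 743 with DESeq2, 689 without the filter on low counts, 641 with only the groups compared, 1002 with limma-voom quality weights and 1427 without 2i+LIF LP replicate 1 and 2i+LIF PO replicate 1. The other settings gave 366 to 413 and, with the replicate block, 541. Leaving out 1 of the 6 libraries gave 123 to 293. The interaction genes, 13 higher and 3 lower, became 87 and 43 with DESeq2, 111 and 45 without the filter, 8 and 1 with only the 4 groups compared, 113 and 47 with quality weights, 122 and 45 without the same 2 libraries, 20 and 7 with the length-trend offset, 8 and 3 with thinned counts and 16 and 4 with the replicate block. Leaving out 1 library gave 5 (without LIF LP replicate 2) to 38 higher and 1 to 17 lower genes, the highest of both without 2i+LIF LP replicate 3. Only the groups compared meant fewer samples and genes; for the other settings the cause was not tested. Deviations of same-numbered libraries correlated at 0.327, 0.249 and 0.0501, and since the third is under 0.1 the numbers were not taken as pairs, although each library correlated best with its own number. Of the 98 called genes followed singly, 47 kept the call in every alternative that tested them, 78 in all of those that left out no replicate, and none reversed. Of the 278 named genes not called, 53 were called in some alternative. Depth limited genes without counts: 5 of the higher and 6 of the lower genes had none in 1 group, and 18 and 18 had at most 3.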

Other observations

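A number of other genes were picked after their values had been seen and are given as values. Of 8 glutathione peroxidase genes, which reduce peroxides with glutathione, 6 were tested, 4 were higher in LIF HP (where 2.1% of all genes tested were) and Gpx2 was lower. Gpx1 had 1320, 2424 and 2281 CPM in LIF HP, against 394, 576 and 651 CPM in 2i+LIF HP. Gpx3 (log2 fold change 3.88, edgeR adjusted p 0.000798), Gpx4 (2.70, 0.0105) and Gpx7 (3.21, 0.0343) were the other rises. Gpx7 lost its call with the length-trend offset (edgeR adjusted p 0.0943) and with limma-voom. Gpx8 had -0.05. Members thus moved in both directions.

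Of 79 cytosolic ribosomal protein genes 77 were tested, 7 were higher, where 2.1% of all genes tested were, none was lower, and 75 had a fold change above 0, with a median of 1.31. With the length-trend offset the median was 0.79 and 7 were called. Their median exonic length was 1781 bases, against 4537 for all genes tested.

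Pramel6 and Nlrp4c, genes of the oocyte and early embryo outside the lists, were lower in LIF HP. Pramel6 had 1.55, 5.54 and 0 CPM there and 27, 101 and 152.4 CPM in 2i+LIF HP (edgeR adjusted p 0.00103). Nlrp4c had 2.06, 3.69 and 5.15 CPM against 14.4, 147.7 and 35.5 CPM (edgeR adjusted p 0.00487). As with Khdc1a and Dppa3, 2i+LIF HP replicate 1 was the lowest of its group for both. Ooep, of the same list as Khdc1a, went the other way, with 29.9, 61 and 40.2 CPM in LIF HP against 12.1, 16.3 and 3.83 CPM (edgeR adjusted p 0.027).

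Further genes outside the lists were Jag1, Igf1r, Igfbp2, Spp1 and Mgmt. Jag1, a Notch ligand, had 2.58, 4.31 and 0 CPM in LIF HP, against 28.8, 22.4 and 22 CPM in 2i+LIF HP (edgeR adjusted p 0.00473), and Igf1r fell to 7.73, 5.54 and 7.21 CPM from 26, 25.6 and 26.8 CPM (edgeR adjusted p 0.0188). Igfbp2, which binds insulin-like growth factors, rose to 63.9, 77 and 98.9 CPM from 9.3, 8.18 and 2.88 CPM (edgeR adjusted p 0.00104). Spp1, which encodes osteopontin, rose to 322, 464 and 295 CPM from 84.6, 73.6 and 111 CPM (edgeR adjusted p 0.00161). Mgmt, a DNA repair enzyme, rose to 39.7, 66.5 and 68 CPM from 3.72, 0.545 and 14.4 CPM (edgeR adjusted p 0.00122). All 5 were picked from called genes, nearly all of which had groups that did not overlap.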
